A study of Homo sapiens with 38 samples.

Results

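IDO1 and TDO2 encode the enzymes that open the tryptophan ring, and they were taken from the table by gene symbol. Each had 1 probe set that named it alone, so 2 of 14488 probe sets are described. The pair was chosen by its measured levels across both arms and the 5 hours, so these values are given as a description with no test. The cells were A549, a line of lung epithelial type from a human lung adenocarcinoma. In the knockdown arm ORMDL3 was silenced with a pool of siRNAs for 48 h. The labels call the other arm control and do not say what those cells were transfected with. Per the labels' protocols, serum was then withheld for 24 h and IL1B was given at 1 ng/ml. RNA was taken at 0 h, before IL1B, and at 2, 4, 8 and 10 h, and hours in culture cannot be told apart from hours of IL1B because no unstimulated cells of later hours were analysed here. There were 19 control and 19 knockdown arrays, 4 for each arm and hour except 3 for control cells at 8 h and 3 for knockdown cells at 0 h. The labels do not say that replicates came from separate cultures, so p-values measure the spread between these arrays, which may be technical. Precision is limited by having 3 or 4 arrays in a group.

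Tryptophan is used for protein and for serotonin, and it is broken down through the kynurenine pathway. IDO1 and TDO2 catalyse the same first step, the oxygen-dependent opening of the indole ring to N-formylkynurenine, and both are heme enzymes. IDO1 is best known as an interferon-induced enzyme of epithelium, macrophages and dendritic cells that starves microbes and T cells of tryptophan, while TDO2 is known for clearing dietary tryptophan in liver under glucocorticoid control. Kynurenine made by either enzyme can leave the cell or bind the aryl hydrocarbon receptor.

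TDO2 was the member whose level was higher in knockdown than in control cells, late after IL1B, while IDO1 was lower. No promoter window of IDO1 was available here, so the motifs of the members cannot be compared, and only the promoter of TDO2 is shown. It comprises the 250 bases before the RefSeq start of TDO2, GRCh38.p14, chr4:155903446-155903695, plus strand, written 5′ to 3′, and its letters were 40% G or C. Capitals mark matches to the motifs searched on both strands.
TDO2 promoter: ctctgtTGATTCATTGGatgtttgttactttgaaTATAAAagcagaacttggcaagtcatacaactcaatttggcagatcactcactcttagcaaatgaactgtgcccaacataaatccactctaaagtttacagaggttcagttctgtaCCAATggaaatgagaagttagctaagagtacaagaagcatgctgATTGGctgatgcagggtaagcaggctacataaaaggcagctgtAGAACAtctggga
A CCAAT box (CCAAT) matched 3 times, from 238 to 234 and from 56 to 52 bases before the start on the minus strand and from 100 to 96 on the plus strand. At least 1 match was present in 32% of 35116 promoter windows of the same length. A TATA-like stretch (TATAAA) lay 216 to 211 bases before the start, and 10.7% of windows held one. The AP-1 motif (TGANTCA) matched from 244 to 238 bases before the start, sharing its last base with the first CCAAT match, and 6.57% of windows held it. The core of the glucocorticoid receptor motif (TGTTCT) matched on the minus strand from 13 to 8 bases before the start, and 12.4% of windows held it. There was no match in this window to the NF-kB motif, to the interferon-stimulated response element core, to the STAT motif TTCNNNGAA, to the C/EBP motif TTGCNNAA or to the aryl hydrocarbon receptor core GCGTG. Those motifs were held by 5.21%, 3.02%, 6.57%, 9.05% and 32.2% of windows.

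The ORMDL3 probe set stood between 6.78 and 7.77 on control arrays and between 5.00 and 5.57 on knockdown arrays, on the log2 level scale used throughout. Array medians lay between 8.02 and 8.19, and the correlation between any 2 arrays over all probe sets was between 0.952 and 0.996. Of the lung epithelium markers, 8 of 12 were measured, among them EPCAM and the keratins, and NKX2-1 and the surfactant proteins were not analysed here. Their mean level per array ran from 10.4 to 11.0 in control and from 10.5 to 10.9 in knockdown cells. The markers of other cells ran, per array, from 7.87 to 8.24 in control and 8.01 to 8.39 in knockdown cells for leukocytes (3 of 10 measured), from 5.79 to 6.79 and 5.84 to 6.90 for fibroblasts and endothelium (2 of 8), and from 6.90 to 7.44 and 6.91 to 7.42 for hepatocytes (3 of 7). Each of these ranges overlapped between the arms.

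In control cells IDO1 was low before IL1B, higher by 4 h, highest at 8 h and lower again at 10 h. Its probe set read 3.94, 3.64, 3.95 and 4.45 on the 4 arrays at 0 h. Those readings were among the dimmest on each array, above only 0.028% to 0.33% of its probe sets, so a fold change from 0 h starts near the floor of the array. At 2 h the readings were 4.68, 4.52, 4.64 and 4.49, all a little above the highest array at 0 h. At 4 h they were 6.63, 6.54, 6.75 and 5.85, with the array of replicate 4 the lowest. At 8 h the 3 arrays read 7.48, 6.95 and 7.47, above every array of the other 9 groups, though 6.95 was close to the highest array at 10 h. At 10 h the arrays read 6.11, 6.83, 6.20 and 5.65. The 8 h readings were above 30.4% to 38.7% of the probe sets on their arrays, below the middle.

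**Figure D1:**
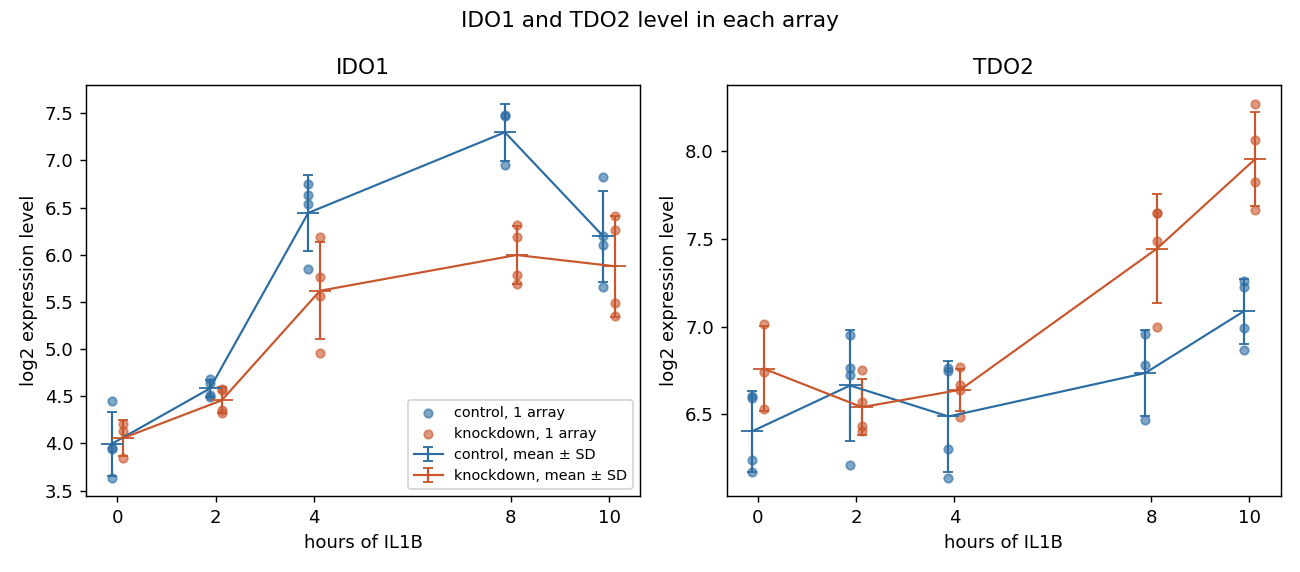
Log2 level of IDO1 (left) and TDO2 (right) against hours of IL1B, with 1 point per array, control and knockdown cells in separate colours, and lines through the group means. IDO1 peaks at 8 h in control cells with a mean of 7.30 and reaches 6.00 in knockdown cells, while TDO2 separates by arm only at 8 and 10 h, where knockdown means are 7.45 and 7.96.

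Against 0 h, control IDO1 was higher by 0.59 ± 0.24 (difference in log2 level ± limma SE, n = 4 against 4) at 2 h, a value that quantile normalization between arrays brought to 0.26, and by 2.45 ± 0.24 at 4 h. The difference was 3.30 ± 0.26 at 8 h (n = 3 against 4), which is 9.87-fold on the array scale, and 2.20 ± 0.24 at 10 h (n = 4). No array at any of these hours overlapped with 0 h. Probe sets that stood clear of 0 h in the same sense made up 10.9%, 15.1%, 19.1% and 17.3% of the table at 2, 4, 8 and 10 h. The step from 2 to 4 h, 1.86 ± 0.24, was at place 2 from the highest of 14488 probe sets. The step from 4 to 8 h was 0.85 ± 0.26, and that from 8 to 10 h, -1.10 ± 0.26, was at place 3 from the lowest. None of these steps had overlapping groups, against a background of 7.7% and 13.9% higher and 7.02% lower. Fewer cells holding a messenger and less of it per cell cannot be told apart in RNA from whole cultures.

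Knockdown cells began from the same IDO1 range, and from 4 h on their group means were below those of control cells. Arrays of the 2 arms overlapped at 4 and 10 h. At 0 h the 3 arrays read 4.13, 4.20 and 3.84, and at 2 h they read 4.35, 4.32, 4.58 and 4.57. The arrays at 4 h read 6.19, 5.76, 5.56 and 4.96, those at 8 h 6.19, 6.32, 5.79 and 5.69, and those at 10 h 6.26, 6.41, 5.36 and 5.49. From 4 h on the 3 groups overlapped each other, and every array of them was above every array at 0 and 2 h. The differences from 0 h were 0.40, 1.56, 1.94 and 1.82, each with an SE of 0.26 (0.14 at 2 h after quantile normalization), and no hour overlapped with 0 h, where 11.8%, 13.7%, 12.9% and 13.4% of probe sets stood higher and clear. Their step from 2 to 4 h was 1.16 ± 0.24, with no overlap, where 8.98% of probe sets stood higher and clear. The steps from 4 to 8 h and from 8 to 10 h were 0.38 ± 0.24 and -0.12 ± 0.24, with overlapping arrays.

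Between the arms, IDO1 differed by little at 0 and 2 h and was lower in knockdown cells at 4 and 8 h. Knockdown minus control was 0.06 ± 0.26 at 0 h and -0.13 ± 0.24 at 2 h. At 4 h it was -0.82 ± 0.24, with 3 of 4 knockdown arrays below every control array and the fourth, 6.19, above only the lowest control array. At 8 h it was -1.30 ± 0.26 (95% interval -1.84 to -0.76), so that knockdown cells stood at 40.6% of the control level on the array scale. The 8 h groups did not overlap: the highest knockdown array read 6.32 and the lowest control array 6.95. Of all probe sets, 8.39% stood lower and clear at this hour, and IDO1 was at place 2 from the lowest difference. At 10 h the difference was -0.32 ± 0.24 (95% interval -0.81 to 0.18), and the groups overlapped through most of their range. Over the mean of the 5 hours it was -0.50 ± 0.11.

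The response to IL1B, each arm against its own 0 h, was compared in the same way. For IDO1 knockdown minus control response was -0.19 ± 0.36 at 2 h, -0.89 ± 0.36 at 4 h, -1.36 ± 0.37 at 8 h and -0.38 ± 0.36 at 10 h, with a mean of -0.71 ± 0.29. Leaving out arrays moved the value at 2 h between -0.52 (without the replicate 4 arrays) and -0.07 (without control replicate 2 at 0 h), and that at 10 h between -0.69 (without the replicate 4 arrays) and -0.17 (without control replicate 2 at 10 h). The 95% intervals were -0.92 to 0.54 at 2 h and -1.62 to -0.16 at 4 h. They were -2.12 to -0.61 at 8 h and -1.11 to 0.35 at 10 h. The pair was chosen by its levels on these arrays, so the intervals describe spread and are no test. These differences share the 0 h arrays of both arms.

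In control cells TDO2 stood clear of 0 h only at 10 h. At 0 h it read 6.59, 6.17, 6.61 and 6.24. The arrays at 2 h read 6.77, 6.73, 6.95 and 6.21, those at 4 h 6.30, 6.75, 6.76 and 6.14. These 3 groups overlapped one another. The 8 h arrays read 6.78, 6.47 and 6.96, still overlapping with 0 h. At 10 h they read 7.26, 7.22, 6.87 and 6.99, all above every array at 0 h. Against 0 h the differences were 0.26 ± 0.17, 0.09 ± 0.17, 0.33 ± 0.18 and 0.68 ± 0.17 (n = 4, and 3 at 8 h), and 17.3% of probe sets stood higher and clear at 10 h. On their arrays the control readings of TDO2 were above 16.4% to 34.5% of probe sets.

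In knockdown cells TDO2 had its highest group means of the study, at 10 and 8 h. The 3 arrays at 0 h read 7.01, 6.53 and 6.74, the 4 at 2 h 6.75, 6.44, 6.40 and 6.57, and the 4 at 4 h 6.77, 6.64, 6.67 and 6.48. None of these 3 groups was clear of another. At 8 h the arrays read 7.65, 7.65, 6.997 and 7.49, of which the array of replicate 3 was the lowest, just under the highest 0 h array, and at 10 h they read 8.06, 8.27, 7.66 and 7.83. Every array at 10 h was above every array of the other 9 groups. The differences from 0 h were -0.22, -0.12 and 0.68, each ± 0.18, at 2, 4 and 8 h, and 1.19 ± 0.18, 2.29-fold on the array scale, at 10 h, where 13.4% of probe sets stood higher and clear. Between 4 and 8 h the step was 0.80 ± 0.17 and between 8 and 10 h 0.51 ± 0.17, neither with overlap, where 10.1% and 5.26% of probe sets stood higher and clear.

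Knockdown minus control for TDO2 was 0.36 ± 0.18 at 0 h, -0.12 ± 0.17 at 2 h and 0.15 ± 0.17 at 4 h, with overlapping arrays at each of these hours. At 8 h it was 0.71 ± 0.18 (95% interval 0.34 to 1.07), and the groups stood clear of each other by a small margin, 6.997 in the lowest knockdown array against 6.956 in the highest control array. At 10 h it was 0.87 ± 0.17 (0.53 to 1.21), 183% of the control level, with 7.66 in the lowest knockdown and 7.26 in the highest control array. The background of probe sets that stood higher and clear was 6.16% at 8 h and 3.59% at 10 h, and at 10 h TDO2 was at place 2 from the highest of 14488 differences. Over 5 hours the mean difference was 0.39 ± 0.08. For TDO2 the response to IL1B differed between the arms by -0.48 ± 0.24 at 2 h, -0.21 ± 0.24 at 4 h, 0.35 ± 0.25 at 8 h and 0.51 ± 0.24 at 10 h, and by 0.04 ± 0.20 over the 4 hours (95% interval -0.36 to 0.45). Leaving out arrays moved the TDO2 values at 4 and 8 h to between -0.32 and -0.08 and between 0.22 and 0.50. The arms share their 0 h arrays across these values, and the difference of 0.36 at 0 h had an interval from -0.01 to 0.72. Leaving out arrays moved that difference between 0.23 and 0.47, and other settings between 0.21 and 0.36.

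**Figure D2:**
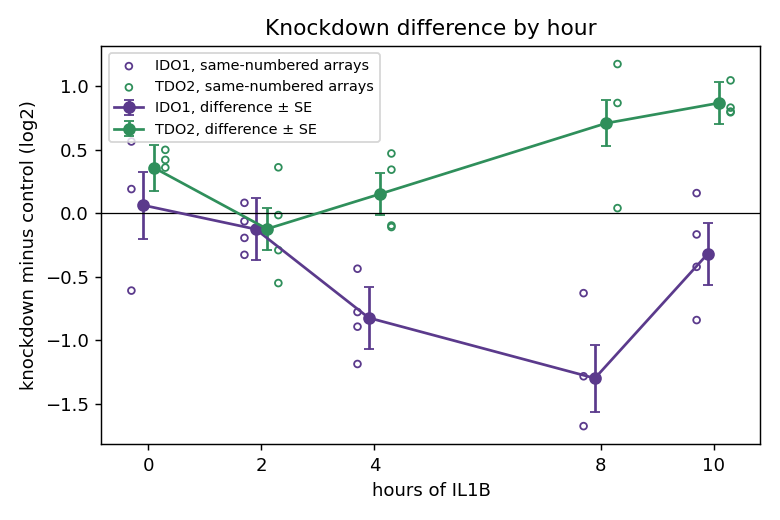
Knockdown minus control difference in log2 level at each hour for IDO1 and TDO2, as points with bars of ± limma SE, and a line at 0. The bars are narrower than 95% intervals. Hollow points are the differences between same-numbered arrays. IDO1 lies below 0 at 4 h (-0.82) and 8 h (-1.30), and TDO2 lies above 0 at 8 h (0.71) and 10 h (0.87).

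Ordered by group mean, IDO1 ran from control at 8 h (7.30 ± 0.30, SD, n = 3) through control at 4 h (6.44 ± 0.40, n = 4), control at 10 h (6.20 ± 0.48), knockdown at 8 h (6.00 ± 0.30), knockdown at 10 h (5.88 ± 0.53) and knockdown at 4 h (5.62 ± 0.51). Control at 2 h (4.58 ± 0.09), knockdown at 2 h (4.46 ± 0.14), knockdown at 0 h (4.06 ± 0.19, n = 3) and control at 0 h (3.99 ± 0.34) came last. Neighbours in this order stood clear of each other only after control at 8 h, after knockdown at 4 h and after knockdown at 2 h. For TDO2 the order began with knockdown at 10 h (7.96 ± 0.27, n = 4), which stood clear of knockdown at 8 h (7.45 ± 0.31). Control at 10 h (7.09 ± 0.19) followed, and the other 7 means lay between 6.40 and 6.76, each overlapping with its neighbours.

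The members did not peak together. By group mean IDO1 was highest at 8 h in both arms, though in knockdown cells 8 and 10 h overlapped, and TDO2 was highest at 10 h in both arms. Within groups, arrays that read high for one member tended to read high for the other: deviations from the group mean had a Pearson r of 0.52 and a Spearman rho of 0.49 over 38 arrays, and an r of 0.47 without the 2 arrays farthest from the IDO1 median. Both readings of a pair come from the same array and RNA. Both deviations also followed a score of each array, the first principal component of all deviations from group means, which holds 21.9% of their variance, with an r of 0.66 for IDO1 and 0.64 for TDO2. The score sums to 0 in each group because the group means were taken out first. It therefore cannot show whether differences between arrays moved the group means. The part of the score in the correlation of the members was not tested. The 9 arrays numbered replicate 4 had a mean deviation of -0.25 for IDO1 and -0.14 for TDO2, 7 of 9 below the group mean for each member. Control cells at 8 h had no array of that number, while knockdown cells at 8 h had it. Without the replicate 4 arrays IDO1 in knockdown minus control was -0.80 at 4 h and -1.20 at 8 h, where it was -1.30 with them. TDO2 without them was 0.70 at 8 h and 0.88 at 10 h.

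**Figure D3:**
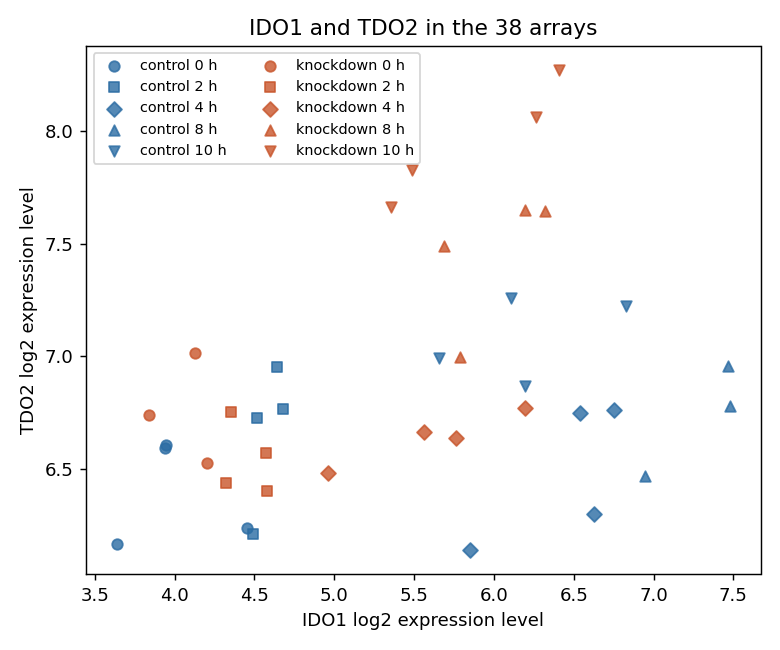
Log2 level of TDO2 against that of IDO1, with 1 point per array, coloured by arm and marked by hour. Control arrays at 8 h lie farthest right, at 6.95 to 7.48 for IDO1, and knockdown arrays at 10 h lie highest, at 7.66 to 8.27 for TDO2.

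The rest of the kynurenine pathway rose and fell in part. Of 15 listed genes 10 were measured, and over the mean of 4 hours of IL1B in control cells 1 rose and 5 fell at an adjusted p under 0.05 (limma with Benjamini-Hochberg adjustment over all probe sets). In the table as a whole 18.1% rose and 21.2% fell, and the list's median difference was -0.16 against -0.02 for all probe sets. KYNU, kynureninase, which cleaves kynurenine and 3-hydroxykynurenine, was the gene that rose, by 0.67 ± 0.04 (adjusted p = 1.7e-14, limma), from 11.9 at 0 h to 12.7 at 8 h. AADAT, an aminotransferase that makes kynurenic acid, fell by 0.57 ± 0.07 (adjusted p = 2.1e-08, limma). KYAT1, another kynurenine aminotransferase, fell by 0.35. NMNAT3, a late enzyme of NAD synthesis, fell by 0.29, and without the replicate 4 arrays it did not pass (adjusted p = 0.066, limma). AFMID, the formamidase that takes the product of IDO1 and TDO2 to kynurenine, fell by 0.26 ± 0.06 (adjusted p = 0.0003, limma). QPRT, which leads from quinolinic acid toward NAD, fell by 0.23 ± 0.09 (adjusted p = 0.037, limma), a call that 7 of 47 other settings lost (adjusted p up to 0.22, without control replicate 3 at 0 h). HAAO, GOT2, NADSYN1 and NMNAT2 did not pass, with differences from -0.10 to -0.05. IDO2, KMO, KYAT3, ACMSD and NMNAT1 were not analysed here.

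In knockdown cells the list gave 1 gene up, KYNU at 0.42 ± 0.05, and 4 down over the same mean, where 12.1% of all probe sets rose and 19% fell. KYNU started higher there, at 12.2 against 11.9 at 0 h (knockdown minus control 0.28 ± 0.06, adjusted p = 0.0041, limma, at an hour where 2.33% of probe sets rose), and reached 12.7 at 8 h in both arms. Over the mean of 5 hours knockdown minus control passed for 2 genes upward, NMNAT2 by 0.20 and KYNU by 0.08. KYAT1 fell by 0.18 and NADSYN1, NAD synthetase, by 0.11; the background was 10.9% up and 12.1% down. NADSYN1 no longer passed without the replicate 4 arrays (adjusted p = 0.053, limma). At 8 and 10 h, where IDO1 or TDO2 stood apart between the arms, none of the 10 passed in limma, and the share of all probe sets that passed was 2.88% and 2.28%.

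**Figure D4:**
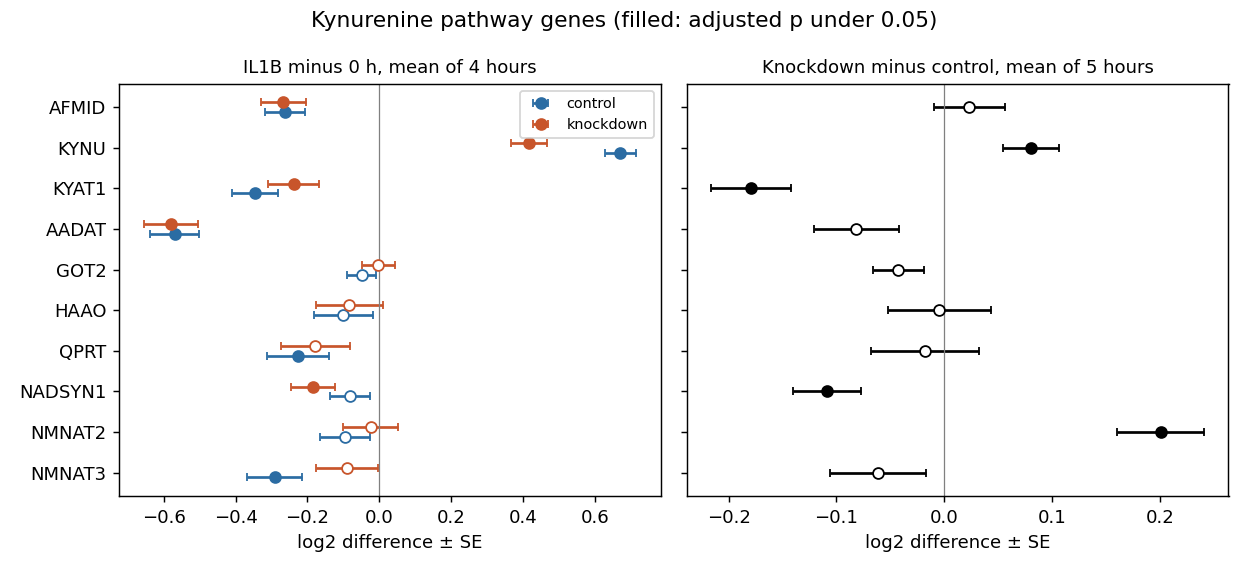
Log2 differences ± SE for the 10 measured kynurenine pathway genes, on the left IL1B minus 0 h over the mean of 4 hours in control and knockdown cells and on the right knockdown minus control over the mean of 5 hours; filled points passed at an adjusted p under 0.05 (limma). KYNU lies to the right with IL1B, at 0.67 in control and 0.42 in knockdown cells, and AADAT lies farthest to the left, at -0.57 and -0.58.

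Genes that bring tryptophan in or use it elsewhere were measured for 13 of 20, and 3 rose and 2 fell with IL1B in control cells, with a list median of -0.08. Over all probe sets 18.1% rose and 21.2% fell, so these counts are near the background. SLC6A14, a broad transporter of neutral and basic amino acids, rose by 2.74 ± 0.24 (adjusted p = 1.9e-11, limma), from a mean of 4.50 at 0 h, near the floor of the array. SLC36A4, a transporter that takes tryptophan, rose by 0.61. WARS1, the tryptophan tRNA synthetase and itself induced by interferon, rose by 0.43 ± 0.04. SLC43A1, a carrier of large neutral amino acids, fell by 0.60 and SLC1A5, a glutamine carrier, fell by 0.40. SLC7A5, the large neutral amino acid carrier, had a difference of -0.09 ± 0.05 that did not pass (adjusted p = 0.14, limma). Between the arms 2 of the 13 passed over the mean of 5 hours, knockdown minus control: SLC1A5 fell by 0.30 and SLC3A2 fell by 0.09. This too is near the background, where 12.1% of all probe sets fell.

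Interferon and JAK-STAT signalling genes, through which IDO1 is classically induced, were measured for 18 of 23. With IL1B 15 rose and 1 fell in control cells, where 18.1% of all probe sets rose and 21.2% fell, and the list's median was 0.73 against -0.02 for all probe sets. IRF1, a transcription factor that binds interferon response elements, rose by 2.35 ± 0.14 (adjusted p = 7.4e-16, limma). Its mean was 7.68 at 0 h, 11.5 at 2 h and 8.99 at 8 h, so it was highest at 2 h and IDO1 at 8 h. Other genes of the list were highest at other hours, some of them at 8 h. SOCS3, a feedback inhibitor of JAK signalling, rose by 1.95, IFNGR1, a chain of the interferon-gamma receptor, by 1.84, IFNAR2, a chain of the type I receptor, by 1.58 and JAK2, the kinase bound to the interferon-gamma receptor, by 1.12. STAT3 rose by 0.13, a call that 3 of 48 other settings lost (adjusted p 0.061 in limma without the replicate 4 arrays and up to 0.11 with quantile normalization), and SOCS1 had 0.17 ± 0.09 and did not pass.

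In knockdown against control cells 4 of these 18 rose and 6 fell over the mean of 5 hours, where 10.9% of all probe sets rose and 12.1% fell, with a list median of 0.01 against -0.01 for all probe sets. JAK2 fell by 0.38 ± 0.06 (adjusted p = 1.4e-05, limma) and differed by -0.53 at 8 h, 7.90 in control and 7.37 in knockdown cells, a call that 7 of 47 other settings lost (adjusted p up to 0.16, without control replicate 1 at 8 h). IRF1 fell by 0.25 ± 0.08 (adjusted p = 0.022, limma; 0.053 without the replicate 4 arrays). At 4 h IRF1 differed by -0.63 ± 0.17 (adjusted p = 0.048, limma), at an hour where 0.732% of probe sets fell, and 27 of 48 other settings lost the call (adjusted p up to 0.21, without knockdown replicate 4 at 4 h). IFNGR1 rose by 0.14 and was 8.74 in knockdown against 8.26 in control cells before IL1B, and without the replicate 4 arrays its mean difference of 0.11 did not pass (adjusted p = 0.065, limma).

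Other genes known to be induced by interferon-gamma were measured for 7 of 16, and all 7 rose with IL1B in control cells, where 18.1% of all probe sets rose, with a list median of 1.70. CXCL10, a chemokine for T cells, rose by 3.17 ± 0.14, from 3.90 at 0 h to 7.80 at 4 h and 6.68 at 10 h. GBP4, a guanylate-binding protein, rose by 1.70, from 4.14 to 6.42 at 8 h, and GBP2 by 2.12. The 0 h readings of CXCL10 and GBP4 were within the lowest 1% on their arrays (limit 4.85 to 5.19), so their rises start near the floor. ICAM1, the adhesion molecule for leukocytes, rose by 5.43. In knockdown against control cells 5 of the 7 fell over the mean of 5 hours (12.1% of all probe sets) and 1 rose (10.9% of all probe sets), GBP2 by 0.17, whose call was lost without the replicate 4 arrays (adjusted p = 0.20, limma). The list's median was -0.27 there. At 8 h 3 of the 7 fell and none rose, and at 10 h the same count fell, where 1.26% and 1.19% of all probe sets fell. CXCL10 fell by 1.15 ± 0.19 at 8 h (adjusted p = 0.00067, limma) and fell by 0.84 ± 0.18 at 10 h, the latter lost in 3 of 47 other settings (adjusted p up to 0.13, with the 2 groups alone in the fit). ICAM1 fell by 1.15 at 8 h and fell by 0.98 at 10 h. GBP4 fell by 0.59 at 8 h and fell by 0.50 at 10 h. These calls for GBP4 were lost in 4 and 8 of 47 other settings, at 8 h with an adjusted p up to 0.11 (limma, without control replicate 2). At 4 h CXCL10 fell by 0.72 ± 0.18 (adjusted p = 0.025, limma), a call that 5 of 47 other settings lost (adjusted p up to 0.14, without control replicate 2 at 4 h). IDO1 beside it differed by -0.82 ± 0.24, -1.30 ± 0.26 and -0.32 ± 0.24 at 4, 8 and 10 h; the difference between these genes was not tested.

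**Figure D5:**
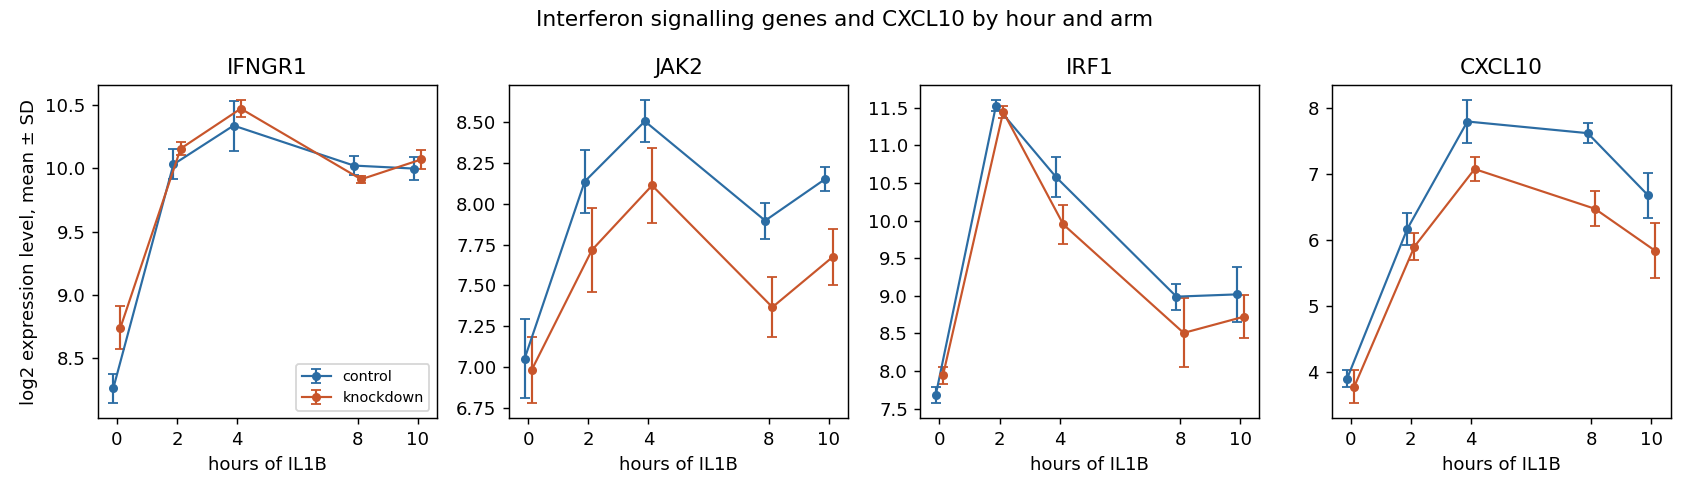
Log2 level, mean ± SD over arrays, of IFNGR1, JAK2, IRF1 and CXCL10 against hours of IL1B in control and knockdown cells. IRF1 peaks at 2 h in control cells (11.5) while CXCL10 peaks at 4 h (7.80), and CXCL10 at 8 h is 7.62 in control and 6.47 in knockdown cells.

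NF-kB, the transcription factor that IL1B activates, had 9 of 10 listed genes measured, of which 7 rose and none fell in control cells (18.1% and 21.2% of all probe sets), with a list median of 0.73. RELB rose by 2.28, NFKB2 by 2.09, NFKB1 by 2.00 and REL by 1.11. With ORMDL3 silenced BCL3, a nuclear partner of NF-kB, fell by 0.15 over the mean of 5 hours and IKBKB, a kinase of its inhibitor, fell by 0.12. These 2 of 9 stand beside 12.1% of all probe sets. At 8 and 10 h none of the 9 passed in limma, where 2.88% and 2.28% of all probe sets did. NFKB2 was 10.1 in knockdown and 9.53 in control cells before IL1B, and its response to IL1B differed between the arms, knockdown minus control, by -0.57 ± 0.10 (adjusted p = 0.0033, limma), where 0.228% of probe sets had a response that was lower in this sense.

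Genes on which kynurenine or a lack of tryptophan is known to act were listed as well. The aryl hydrocarbon receptor list had 8 of 13 genes measured, and 2 rose and 3 fell with IL1B in control cells, where 18.1% of all probe sets rose and 21.2% fell. AHR rose by 0.54 ± 0.06 and its partner ARNT by 0.16, the latter not passing without control replicate 4 at 0 h (adjusted p = 0.0505, limma), while CYP1B1, a classical target of the receptor, fell by 0.31 ± 0.08 (adjusted p = 0.0036, limma) and ALDH3A1, another, fell by 0.17, a call lost without control replicate 2 at 0 h (adjusted p = 0.084, limma). These are differences over the mean of 4 hours, and at 8 h alone none of the 8 measured genes passed downward in limma. CYP1A1 was not analysed here. AHR had a knockdown difference of 0.05 ± 0.04 and CYP1B1 of 0.05 ± 0.05, and neither passed; ALDH3A1 fell by 0.14 and HSP90AA1, a chaperone of the receptor, fell by 0.09. The call for HSP90AA1 was lost in 2 of 47 other settings, with -0.07 without the replicate 4 arrays (adjusted p = 0.18, limma). Of 10 genes known to respond to lack of amino acids, 1 rose and 6 fell with IL1B in control cells (18.1% and 21.2% of all probe sets). CHAC1, which degrades glutathione, rose by 1.26, and PSAT1 and PHGDH, of serine synthesis, fell by 0.59 and 0.51. TRIB3, a pseudokinase of the same stress response, fell by 0.57. In knockdown against control cells 2 of the 10 rose and 3 fell (10.9% and 12.1% of all probe sets): TRIB3 rose by 0.27, CHAC1 fell by 0.42 and PSAT1 fell by 0.23, for example.

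For the glucocorticoid receptor, the classical regulator of TDO2 in liver, 7 of 10 genes were measured, and 2 rose and 4 fell with IL1B in control cells, where 18.1% of all probe sets rose and 21.2% fell. TSC22D3, a target of the receptor, fell by 1.16 ± 0.08 and PER1, another, fell by 0.59. HSD11B2, which inactivates cortisol, fell by 0.36, a call lost without control replicate 3 at 0 h (adjusted p = 0.053, limma). HSD11B1, which regenerates cortisol, rose by 0.98. With ORMDL3 silenced TSC22D3 rose by 0.31 ± 0.05 (adjusted p = 1.3e-05, limma) over the mean of 5 hours, and HSD11B1 fell by 0.18, a call lost without the replicate 4 arrays. At 8 and 10 h, where TDO2 stood apart, none of the 7 passed in limma (2.88% and 2.28% of all probe sets did). For heme supply and the donors of electrons, 16 of 17 were measured, and 2 rose and 5 fell with IL1B in control cells, against the same 18.1% and 21.2%. ALAD, an early enzyme of heme synthesis, fell by 0.52, HMOX1, which breaks heme down, by 0.42, and the heme carrier SLC48A1 fell by 0.39, while the heme exporter FLVCR1 rose by 0.38. The call for SLC48A1 was lost in 3 of 48 other settings (adjusted p up to 0.17 in limma, without control replicate 3 at 0 h). In knockdown against control cells 4 of the 16 fell and none rose over the mean of 5 hours in limma, where 12.1% of all probe sets fell and 10.9% rose. HMOX1 fell by 0.58 ± 0.04 (adjusted p = 9.7e-13, limma) over the mean of 5 hours and FLVCR1 fell by 0.24.

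Of the markers of other cells, 2 of 3 measured for leukocytes were higher in knockdown cells over the mean of 5 hours (10.9% of all probe sets were), ITGAX by 0.42 ± 0.04 and CD68 by 0.14 ± 0.04, while CD14 had -0.02 ± 0.07 and did not pass. With IL1B in control cells 5 of the 8 measured lung epithelium markers fell and 1 rose, with a list median of -0.32. Of all probe sets 21.2% fell and 18.1% rose there. In knockdown cells the counts were the same with a median of -0.25, where 19% of all probe sets fell and 12.1% rose. In control cells CDH1 fell by 0.81, KRT19 fell by 0.66, and KRT18, EPCAM and KRT8 fell by 0.34, 0.32 and 0.31, while MUC1 rose by 0.69. The call for EPCAM was lost in 2 of 47 other settings (adjusted p up to 0.090 in limma, without control replicate 1 at 0 h). None of the 3 leukocyte markers passed in limma over the mean of the hours of IL1B, in either arm. At single hours some did: in control cells 1 rose at 8 h and 1 at 10 h. In knockdown cells 1 rose at 8 h and 2 rose at 10 h. The share of all probe sets that passed at these single hours is not given here, so these counts have no background. By another measure, 19.1% and 17.3% of all probe sets stood higher and clear of 0 h in control cells at 8 and 10 h. In knockdown cells it was 12.9% and 13.4%. CDH5, known from endothelium, rose by 1.13 over the mean of the hours of IL1B in control cells, while COL1A1 did not pass with 0.01 ± 0.08. SERPINA1, known from liver and lung epithelium, rose by 0.40, a call lost without control replicate 3 at 0 h (adjusted p = 0.075, limma), and the other 2 hepatocyte markers did not pass, with a list median of -0.09. Between the arms KRT19 was higher by 0.60 ± 0.04 in knockdown cells and EPCAM fell by 0.19 ± 0.06, the latter a call that 12 of 46 other settings lost (adjusted p up to 0.065, without control replicate 3 at 8 h). The part of these markers in the differences of IDO1 and TDO2 was not tested.

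The genes whose levels were most like those of a member were sought by Pearson r over the 38 arrays, among 12131 other probe sets with 1 symbol. The arrays share their hours and arms, so these values describe a shared course over groups. For IDO1 they were UST (r 0.94), a sulfotransferase of glycosaminoglycans, OAS2 (0.93), FEZ1 (0.93), MX1 (0.92) and IFIT1 (0.92). OAS2, MX1 and IFIT1 are antiviral genes known to be induced by type I interferon. In control cells at 8 h UST was higher than at 0 h by 1.26, OAS2 by 2.34, FEZ1 by 1.41, MX1 by 3.51 and IFIT1 by 3.07. Knockdown minus control at 8 h was -0.46 for UST, -0.91 for OAS2, -0.40 for FEZ1, -0.90 for MX1 and -1.21 for IFIT1. At 10 h it was -0.44, -0.44, -0.22, -0.47 and -0.42 in the same order. FEZ1 did not pass at 8 h (adjusted p = 0.14, limma). At 10 h only UST passed, and OAS2, FEZ1, MX1 and IFIT1 had an adjusted p of 0.32, 0.51, 0.32 and 0.48 (limma). These genes were picked by likeness over the same arrays, so their differences are a description. By Spearman rho the leading genes were CLEC4E (0.94), CTSC (0.93), OAS2 (0.93), JMJD6 (0.92) and ASS1 (0.91), so that OAS2 led under both measures.

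For TDO2 the leading genes were RAB31 (r 0.88), a small GTPase of vesicle traffic, LETM2 (0.85), ADARB1 (0.84), an RNA-editing enzyme, STRIP2 (0.81) and FUT8 (0.81), a fucosyltransferase. Knockdown minus control at 10 h was 0.15 for RAB31, 0.21 for LETM2, 0.21 for ADARB1, 0.08 for STRIP2 and 0.39 for FUT8, beside 0.87 for TDO2. Among these 5 genes only FUT8 passed at 10 h (adjusted p = 0.011, limma). RAB31 and LETM2 were also among the 5 highest by Spearman rho (0.85 and 0.80), with SEC23B (0.85), SLC17A5 (0.82) and VAMP4 (0.80). On deviations from group means, which leave out hours and arms, other genes led for both members. They were EIF2B1 (0.82), MAD2L1BP (0.82), PLIN2 (0.79), PHF5A (0.78) and LDHB (0.77) for IDO1, and STX18 (0.83), UPRT (0.82), UTP6 (0.82), TCEANC2 (0.79) and PIGM (0.79) for TDO2.

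The neighbouring protein-coding genes on the chromosome were looked up as well, 3 on each side in the RefSeq order. Of these ADAM18, ADAM2 and IDO2 beside IDO1 and GUCY1A1 and ASIC5 beside TDO2 were not analysed here. Over the mean of 4 hours of IL1B in control cells 18.1% of all probe sets rose and 21.2% fell. Beside IDO1, on chromosome 8, ADAM32 rose with IL1B in control cells by 0.45 and TCIM by 0.76, and ZMAT4 had 0.19 and did not pass. Beside TDO2, on chromosome 4, CTSO rose by 0.27 and GUCY1B1 by 0.20, GLRB fell by 0.35 and PDGFC had -0.08 and did not pass. Between the arms, knockdown minus control, ADAM32 rose by 0.14 and CTSO fell by 0.16, the latter opposite in sign to TDO2, and the other 5 measured neighbours did not pass. Of all probe sets 10.9% rose and 12.1% fell in this comparison over the mean of 5 hours.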

How the data were processed

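RNA from 38 samples of A549 cells was read on Affymetrix arrays. The authors deposited log2 expression values, 1 per probe set and array, made with RMA in Affymetrix Power Tools on build hg19, per the submitters' processing notes, which also name limma 3.22.7. RMA is a background correction, quantile normalization and probe summary, so levels compare between arrays but not between genes, and low levels are compressed. The table held 14488 probe sets, of which 12132 had 1 gene symbol, 628 several and 1728 none in the platform annotation; symbols were updated through Entrez IDs for 12121. Groups came from the sample titles. limma 3.58.1 in R 4.3.3 was fitted to all probe sets and arrays with 1 mean for each of 10 groups, with no filter, and p-values were adjusted by Benjamini-Hochberg over 14488 probe sets for each comparison; the threshold was 0.05. The fit was tested on simulated data. Where a gene had several probe sets, the one with the highest mean level was used. Genes were named by a rule: IDO1 and TDO2, every measured kynurenine gene, up to 4 genes per other list with the largest IL1B change and up to 2 with the largest knockdown change, first regulators of IDO1 and users of tryptophan and kynurenine, and the 5 genes most like each member. CXCL10 and ICAM1 are among them, and SLC3A2, the markers that passed and the chromosomal neighbours were named after their values were seen. The members and the lists were chosen with earlier results of these data known. Same-numbered arrays of the arms were compared at each hour. Their deviations correlated from -0.22 to 0.58 over 18 pairs, with a median of 0.15 and 11 above 0.1. Over 54 pairs of different numbers the median was -0.02, with 14 above 0.1, so same-numbered arrays were somewhat more alike. The labels do not say what the numbers share, and the main fit did not use them. Fits with the number as a block are among the other settings.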

Additional observations from a re-analysis of the deposited data

Results flagged for a closer look

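In no group of 4 arrays did the highest or lowest IDO1 or TDO2 reading stand apart by Dixon's ratio; 16 groups were tested, and the highest ratio was 0.77 (chance alone passes the limit in about 1 of 20 groups). Of the listed genes, 3 had a response to IL1B that differed between the arms in limma after Benjamini-Hochberg adjustment. The response of NFKB2, knockdown minus control, was -0.57 over the 4 hours (adjusted p = 0.0033, limma) and -0.57 at 8 h (adjusted p = 0.034, limma), the latter lost in 11 of 48 other settings. IFNGR1 gave -0.59 at 8 h (adjusted p = 0.023, limma) and -0.43 over the 4 hours (adjusted p = 0.042, limma). The 8 h call was lost in 9 of 48 other settings, among them the fit without the replicate 4 arrays (adjusted p = 0.12, limma), and the call over the 4 hours in 23 of 47. ICAM1 gave -0.99 at 8 h (adjusted p = 0.0034, limma), at an hour where 0.214% of probe sets had a lower response in knockdown cells. It was lost in 1 of 48 other settings, with only the groups compared in the fit (adjusted p = 0.070, limma). For NFKB2 and IFNGR1 the knockdown level at 0 h was higher than the control level, 10.1 against 9.53 and 8.74 against 8.26, and at 8 h the arms read 11.3 against 11.4 and 9.91 against 10.0. For ICAM1 the 0 h levels were 6.65 and 6.80 and the 8 h levels 10.5 and 11.7.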

How the results depend on the processing

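Each result was recomputed under other normalizations, array weights, blocks and variance settings, and without each array in turn. No difference of IDO1 or TDO2 larger than its SE changed direction. Both members were removed when probe sets with a mean level below the median were left out, so that setting gave no value. Leaving out arrays moved IDO1 in knockdown minus control between -1.48 and -1.20 at 8 h, between -1.02 and -0.60 at 4 h and between -0.50 and -0.11 at 10 h, and TDO2 between 0.58 and 0.86 at 8 h and between 0.76 and 0.97 at 10 h. The other settings that could be run moved these less. With the replicate number as a block, a fit in which the numbers need not pair arrays, IDO1 at 8 h was -1.22 and TDO2 at 10 h was 0.87, and the response difference passed for 4 listed genes downward instead of 2. That count was 1 with quantile normalization or array medians subtracted, 9 with array weights, 8 with the array score as a covariate, which was chosen after seeing the data, and 1 to 3 without single arrays. Array weights also gave 3 upward instead of 0. A kynurenine gene passed downward for this difference, against 0, with array weights (1), variance trend and robust fitting (1) and the array score (1). Without the dim probe sets the kynurenine genes lowered by IL1B in control cells were 1 instead of 5, in knockdown cells 2 instead of 4, and knockdown gave 1 up and 1 down instead of 2 and 2; the counts over all lists were 15 instead of 26, 14 instead of 22 and, upward for knockdown, 6 instead of 10, from fewer genes tested. Leaving out arrays gave 13 to 24 listed genes lowered by IL1B in knockdown cells, 2 to 4 kynurenine genes among them, and 1 to 2 kynurenine genes lowered by knockdown; the cause was not tested.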
